A study of Homo sapiens with 6 samples.

Results

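The genes described act around the tumour suppressor p53. MDM2 and MDM4 hold p53 in check, and CDKN1A, TRIAP1, TIGAR, AEN, RPS27L, POLH and RRM2B are targets of p53. The roles of these targets include the cell cycle, DNA repair, survival and, for AEN, the digestion of nucleic acids. All 9 genes were taken by symbol from a table of 18806 genes, and all were found. Libraries of poly(A) RNA were sequenced from Mono-mac-6 cells, an established human line from a monocytic acute leukaemia with the MLL-AF9 fusion gene. All libraries came from 1 Cas9 single clone of this line, so every group shares that clone, the lentiviral transduction and the antibiotic selection (200 µg/ml of hygromycin B and 10 µg/ml of blasticidin). The control group received the guide RNA sgNS, and the other groups received sgMETTL1.3 or sgMETTL1.6, guides against METTL1, which encodes the catalytic subunit of a tRNA N7-methylguanosine methyltransferase. Cells were harvested 8 to 10 days after transduction, with 2 libraries per group and 6 in all. The values are TPM, a transcript's estimated share of all transcripts, corrected for its length, so that each library sums to the same total.

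p53 is a transcription factor that is made and destroyed continuously. MDM2 is the ubiquitin ligase that marks it for destruction and is itself a p53 target, which closes a feedback loop, and MDM4 is a related protein that binds p53 and blocks its activity. When DNA is damaged or ribosome production fails, p53 is released from both and switches on genes that halt the cell cycle, support repair or, in other branches, kill the cell. Neither p53 protein nor its activity was read in these data.

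Of the 9 genes, 8 could be searched for the p53 response element, a pair of decamers in tandem. They differ in how closely the DNA before their starts resembles it. The closest matches are shown because MDM2, AEN and RPS27L did not move alike below. RefSeq start sites on GRCh38.p14 matched 8 of the 9 genes, all but RRM2B. The 250 bases before each start were searched for the response element consensus with no spacer between its decamers. The consensus is its own reverse complement, so a single pass reads both strands. Among 35114 such windows, 0.561% held a match with at most 2 mismatches and 4.36% one with at most 3. The internal promoter of MDM2, in the first intron of its longer transcripts, held a pair of matches within 78 bases (chr12:68808913-68808990, plus strand, an intron with no annotated exon in GENCODE 29), with both matches in capitals:
MDM2 internal promoter: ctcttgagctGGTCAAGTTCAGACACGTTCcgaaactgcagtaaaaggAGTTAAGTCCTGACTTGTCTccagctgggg
In the single elements, capitals mark bases that the consensus allows:
MDM2 first element, 2 mismatches: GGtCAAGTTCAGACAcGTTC
MDM2 second element, 3 mismatches: AGttAAGTCCtGACTTGTCT
AEN, 2 mismatches: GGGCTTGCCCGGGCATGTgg
RPS27L, 3 mismatches: GGcCTAGagCAGACAAGCCC
CDKN1A, 5 mismatches: tGGCcTGCTgGAACTcGgCC
TRIAP1, 5 mismatches: AAGtgccTCCcGGCTTGCTC
The MDM2 elements span chr12:68808923-68808942 and chr12:68808961-68808980. The AEN element (chr15:88621306-88621325, plus strand) and the RPS27L element (chr15:63157527-63157546, minus strand) lie before the RefSeq start and inside an exon of a longer GENCODE 29 transcript. The best match of CDKN1A (chr6:36678541-36678560, plus strand) and that of TRIAP1 (chr12:120446593-120446612, minus strand) have 5 mismatches, a level reached by 64.5% of all windows. MDM4 and the outer MDM2 promoter also stood at 5, and TIGAR and POLH at 6, which 95.7% of windows reached. A match is a likeness of letters in this window and says nothing of binding. Elements farther before a start, after it, or with a spacer between the decamers were not looked for.

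Of the 18806 genes, 10911 averaged 1 TPM or more and were tested, all 9 among them, and TIGAR was the lowest at 1.64 to 2.46 TPM. TPM keep no depth, so the depth behind each value is unknown and counting error cannot be given. Nothing in the labels tells whether replicates came from separate cultures, and p-values then reflect the spread among these libraries alone, which may be technical. METTL1 stood at 15.38 and 13.89 TPM with sgNS, 18.29 and 16.56 with sgMETTL1.3 and 11.15 and 11.69 with sgMETTL1.6; gene-level TPM do not read small insertions or deletions, so this checks neither the cut nor the protein. The library labels are used as given. All 6 library names also carry the letters EV, which the labels do not explain. The 10 monocytic markers summed to 9563 to 11868 TPM in the 6 libraries, nearly all of it LYZ at 9205.5 to 11419.34 TPM. CD14 and CSF1R lay under 1 TPM in every library. Of the 8 markers tested, 6 fell over both guides, beside 26.8% of all tested genes. CST3, with a change of 0.01 over both guides, rose with sgMETTL1.3 (0.13) and fell with sgMETTL1.6 (-0.11). The 18 markers of other lineages summed to 72.0 to 104.1 TPM, nearly all of it PECAM1, with 9 to 12 of them at 0 in a library. Both that were tested passed higher over both guides: PECAM1, which monocytes also express, with sgMETTL1.3 alone (98.54 and 100.05 TPM against 70.66 and 73.78 with sgNS and 68.59 and 71.03 with sgMETTL1.6), and HBA1, a globin listed at 1.34 and 0 TPM with sgNS and at 1.62 to 2.67 TPM with the guides. The part of either marker list in the results was not tested.

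The main comparison set the 4 libraries that received a METTL1 guide against the 2 controls. CDKN1A and MDM4 were lower with both guides, TRIAP1, TIGAR, AEN, RPS27L, POLH and RRM2B were higher, and MDM2 did not pass the test. CDKN1A, the p21 inhibitor of cyclin-dependent kinases, had the largest change of the 9, a fall of its mean level by 36.3% with sgMETTL1.3 and by 43.8% with sgMETTL1.6. Among the rises, TRIAP1 had the largest change on log2(TPM + 1), 0.40 against 0.29 for TIGAR, but with a pseudocount of 0.1 that order turned (0.40 and 0.41), and the mean TPM of TIGAR with sgMETTL1.3 rose by 43.8% against 35.1% for TRIAP1. Of the 9 genes 6 passed higher and 2 lower (limma, adjusted p under 0.05), where 59.4% of all tested genes passed in either direction, 32.6% higher and 26.8% lower. For the same 8 genes all 4 guide libraries lay outside the controls on 1 side, 6 above and 2 below, as for 60.2% of all tested genes (32.9% above, 27.3% below). The median log2 change was 0.20 over the 9 genes and 0.02 over all genes tested. By the size of the change, CDKN1A ranked 383 of 10911, TRIAP1 1557 and MDM4 2170, and the others stood between 2844 and 8548.

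**Figure D1:**
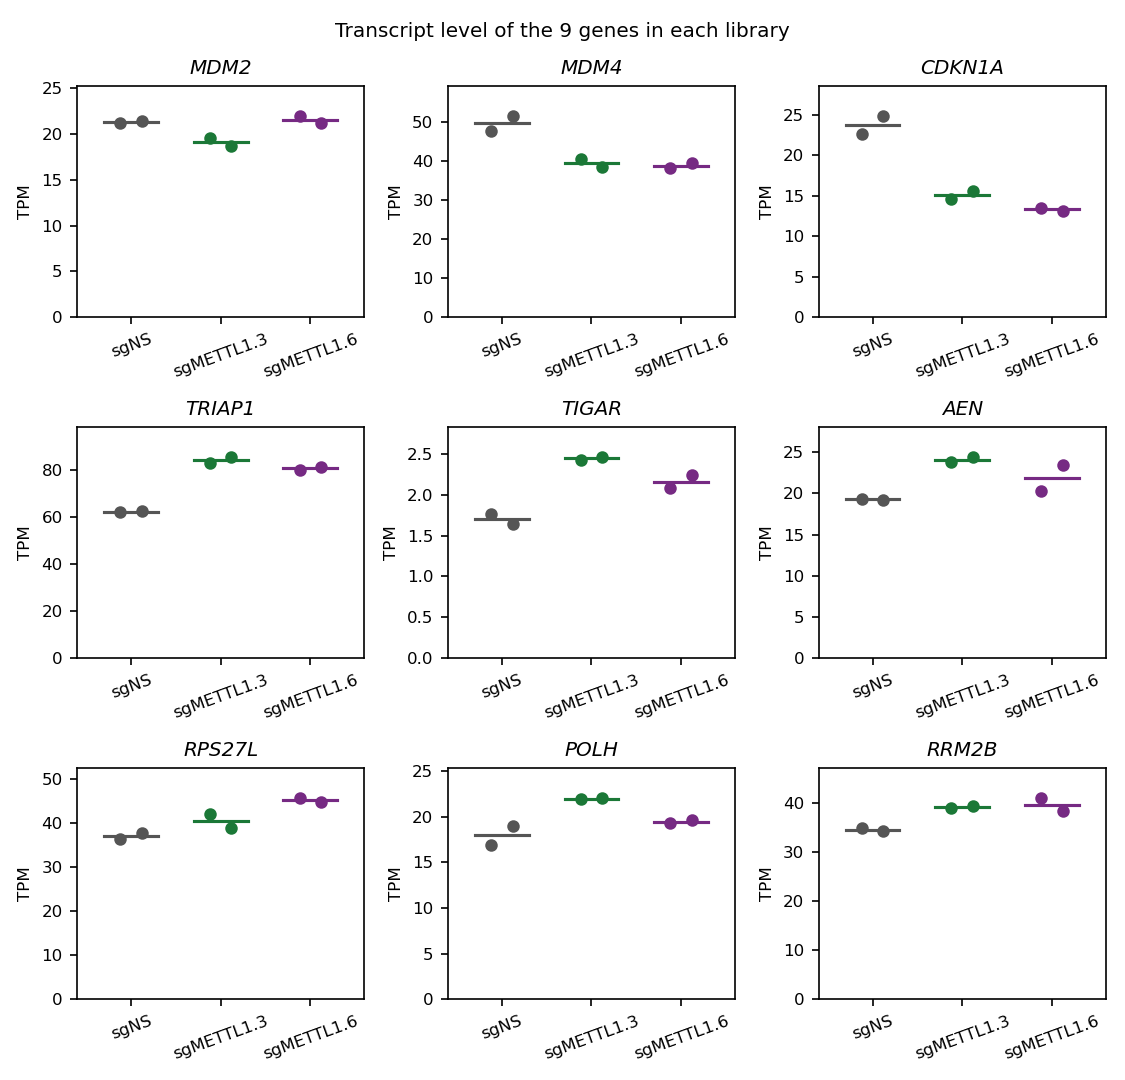
Transcript level (TPM, linear axis from 0) of each of the 9 genes in the 2 libraries (points) of each group, with the group mean as a line. All 4 guide libraries lie below both sgNS libraries for CDKN1A and MDM4 and above them for TRIAP1, TIGAR, AEN, RPS27L, POLH and RRM2B, while MDM2 overlaps.

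The guides share the same 2 control libraries, so their comparisons with control are not independent of each other. With sgMETTL1.3, 5 of the 9 genes passed higher and 3 lower, beside 58.5% of all tested genes in either direction (34.3% higher, 24.2% lower). With sgMETTL1.6, 4 passed higher and 2 lower, beside 51.0% (25.7% higher, 25.3% lower). The groups did not overlap for all 9 genes with sgMETTL1.3 (6 higher, 3 lower) and for 8 with sgMETTL1.6 (6 higher, 2 lower), which also held for 79.9% of all tested genes with sgMETTL1.3 (46.2% higher, 33.7% lower) and 74.8% with sgMETTL1.6 (37.8% higher, 37.0% lower).

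**Figure D2:**
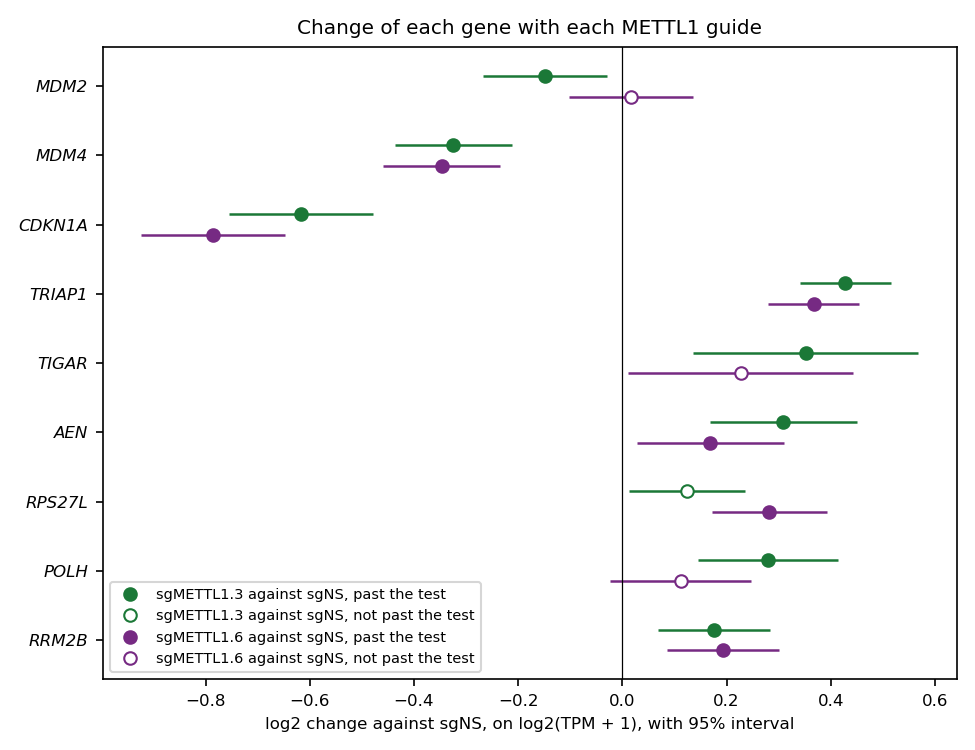
Log2 change of each gene against sgNS on log2(TPM + 1), with sgMETTL1.3 in green and sgMETTL1.6 in purple; bars are 95% intervals from limma, filled points passed at an adjusted p under 0.05 and open points did not. CDKN1A lies farthest from 0, at -0.62 and -0.78, and MDM2 with sgMETTL1.6 lies nearest to it, at 0.02.

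Among the regulators, MDM2 (ENSG00000135679.23, chr12:68808176-68850686 in GRCh38) encodes the ligase that degrades p53. It stood at 21.23 and 21.38 TPM with sgNS, 19.53 and 18.73 TPM with sgMETTL1.3, and 21.95 and 21.17 TPM with sgMETTL1.6. The sgMETTL1.3 libraries were the low ones, and the sgMETTL1.6 libraries lay on either side of the controls. Over both guides its log2 change was -0.07 (95% interval -0.17 to 0.04, limma, adjusted p = 0.25). With sgMETTL1.3 alone it was lower by a log2 change of -0.15 (adjusted p = 0.033), a call that was lost when any 1 of the 4 sgNS and sgMETTL1.3 libraries was left out (adjusted p from 0.052 to 0.177). CPM, a carboxypeptidase gene that runs against the MDM2 gene and shares 133 annotated exon bases with it, rose from 9.26 and 9.92 TPM to 16.2 and 16.64 TPM with sgMETTL1.3 and 12.82 and 13.77 TPM with sgMETTL1.6. Whether reads were counted by strand is not given in the sources used here, and the part of CPM reads in the MDM2 value was not tested.

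MDM4 (ENSG00000198625.12, chr1:204516379-204558120) encodes the relative of MDM2 that masks the activation domain of p53. It was at 47.82 and 51.53 TPM with sgNS, at 40.44 and 38.48 TPM with sgMETTL1.3 and at 38.18 and 39.47 TPM with sgMETTL1.6. Every guide library was below both controls, and the guides overlapped each other. Its log2 change over both guides was -0.34 ± 0.045 (SE, limma, adjusted p = 3.0e-05), and between the guides it was -0.02 (95% interval -0.13 to 0.09, adjusted p = 0.78). In the controls MDM4 transcripts were the more abundant of the pair, 49.7 ± 2.62 TPM against 21.3 ± 0.106 TPM for MDM2 (SD, n = 2).

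CDKN1A (ENSG00000124762.13, chr6:36676460-36687339) encodes p21, which stops the cell cycle by binding cyclin and CDK complexes and is among the best known p53 targets. It stood at 22.65 and 24.84 TPM with sgNS. It was at 14.63 and 15.62 TPM with sgMETTL1.3 and at 13.55 and 13.15 TPM with sgMETTL1.6. All 4 guide libraries were below both controls by more than the gap between any pair of replicates. The log2 change was -0.70 ± 0.055 over both guides (SE, limma, adjusted p = 2.6e-07), -0.62 with sgMETTL1.3 (adjusted p = 3.5e-06) and -0.78 with sgMETTL1.6 (adjusted p = 5.2e-07). The guides differed from each other by -0.17 (95% interval -0.31 to -0.03), which did not pass after adjustment over all genes (adjusted p = 0.075). None of the 50-base stretches of CDKN1A transcripts was shared with another gene's annotated transcripts, each read in its direction of transcription. DINOL, a noncoding gene on the opposite strand, shares 146 annotated exon bases with CDKN1A. Its part in the CDKN1A value was not tested.

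TRIAP1 (ENSG00000170855.3, chr12:120443961-120446412, minus strand) encodes a small p53-induced protein that, with PRELI-family partners, carries phospholipid between mitochondrial membranes and opposes cell death. It stood at 62.07 and 62.43 TPM with sgNS, 82.83 and 85.35 TPM with sgMETTL1.3, and 80.0 and 81.23 TPM with sgMETTL1.6. It was the most abundant of the 9, its replicates were close together, and every guide library was above both controls. It rose by a log2 change of 0.40 ± 0.035 over both guides (SE, limma, adjusted p = 6.9e-07), 0.43 with sgMETTL1.3 and 0.37 with sgMETTL1.6. Of its PRELI-family partners, PRELID1 rose from 211.8 ± 3.33 TPM to 279.7 ± 9.20 and 258.96 ± 1.26 TPM (SD, n = 2; log2 change 0.34, adjusted p = 6.5e-07), PRELID3B fell (-0.25, adjusted p = 0.00013), and PRELID3A, at 2.87 to 4.78 TPM, had a log2 change of 0.15 that did not pass.

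RPS27L (ENSG00000185088.13, chr15:63125872-63158021, minus strand), a p53-induced relative of ribosomal protein RPS27, stood at 36.32 and 37.62 TPM with sgNS. It was at 42.03 and 38.77 TPM with sgMETTL1.3 and at 45.59 and 44.74 TPM with sgMETTL1.6. All guide libraries were above the controls, sgMETTL1.3 replicate 2 by the least. It rose over both guides (log2 change 0.20 ± 0.044, SE, limma, adjusted p = 0.0015) and with sgMETTL1.6 (0.28, adjusted p = 0.00052). With sgMETTL1.3 the change was 0.12 (95% interval 0.01 to 0.23, adjusted p = 0.053), and it was 0.18 without sgMETTL1.3 replicate 2 (adjusted p = 0.025) and 0.07 without sgMETTL1.3 replicate 1. RPS27, the ribosomal protein it resembles, moved the other way: it stood at 8862 and 8334 TPM with sgNS, 6828 and 7012 TPM with sgMETTL1.3 and 7688 and 7565 TPM with sgMETTL1.6 (log2 change -0.24, adjusted p = 2.4e-06). Among the 50-base stretches of RPS27L transcripts 1.65% occur in another gene's annotated transcripts. LACTB, a mitochondrial protein gene that overlaps RPS27L on the opposite strand with no shared annotated exon base, rose too (log2 change 0.31, adjusted p = 8.4e-05), and its part in the RPS27L value was not tested.

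POLH (ENSG00000170734.11, chr6:43576150-43615660) encodes DNA polymerase eta, which copies past ultraviolet damage. It stood at 16.91 and 19.05 TPM with sgNS, 21.95 and 22.06 TPM with sgMETTL1.3, and 19.33 and 19.63 TPM with sgMETTL1.6. The controls were far apart for this gene, and the upper one came close to the sgMETTL1.6 libraries. It rose over both guides (log2 change 0.20 ± 0.054, SE, limma, adjusted p = 0.0070) and with sgMETTL1.3 (0.28, adjusted p = 0.0018). With sgMETTL1.6 the change was 0.11 (95% interval -0.02 to 0.25, adjusted p = 0.154). Without sgNS replicate 1 the change over both guides was 0.11 (adjusted p = 0.162), and without sgNS replicate 2 that with sgMETTL1.6 was 0.19 (adjusted p = 0.043). GTPBP2, a GTPase gene on the opposite strand that shares 4 annotated exon bases with POLH, moved the other way, from 157.16 and 164.23 TPM to 86.02 and 84.53 TPM with sgMETTL1.3 and 77.73 and 85.66 TPM with sgMETTL1.6.

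RRM2B (ENSG00000048392.11, chr8:102204502-102239118, minus strand) encodes the p53-inducible small subunit of ribonucleotide reductase, the enzyme that makes DNA precursors outside S phase when paired with RRM1. It stood at 34.94 and 34.19 TPM with sgNS, 38.95 and 39.44 TPM with sgMETTL1.3, and 40.98 and 38.36 TPM with sgMETTL1.6. All guide libraries were above both controls, and the guides overlapped. The log2 change was 0.18 ± 0.043 over both guides (SE, limma, adjusted p = 0.0023), 0.18 with sgMETTL1.3 and 0.19 with sgMETTL1.6. The single-guide calls were lost without sgNS replicate 2 (sgMETTL1.3, adjusted p = 0.054) and without sgMETTL1.6 replicate 1 (sgMETTL1.6, adjusted p = 0.052). RRM2, the S-phase small subunit, stood at 194.31 and 198.99 TPM with sgNS, 189.92 and 187.93 with sgMETTL1.3 and 184.12 and 179.05 with sgMETTL1.6 (log2 change -0.09, adjusted p = 0.025), and RRM1, the large subunit, had a log2 change of 0.09 (adjusted p = 0.047), a call that was kept in 6 of 15 alternatives. It was lost with no filter on low genes, without the variance trend, under median-ratio scaling, under quantile normalization and without ribosomal protein genes (adjusted p from 0.089 to 0.208), and that of RRM2 was lost without the variance trend (0.087). Leaving out either sgNS library ended both of these calls (adjusted p from 0.062 to 0.242), as did leaving out sgMETTL1.3 replicate 1 or sgMETTL1.6 replicate 1 for RRM1 and sgMETTL1.3 replicate 2 or sgMETTL1.6 replicate 2 for RRM2.

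TIGAR (ENSG00000078237.6, chr12:4307763-4354593) encodes a phosphatase that lowers fructose bisphosphates and diverts glucose into the pentose phosphate pathway. Its level was 1.76 and 1.64 TPM with sgNS, 2.43 and 2.46 TPM with sgMETTL1.3, and 2.08 and 2.24 TPM with sgMETTL1.6. Its guide libraries were above the controls, the sgMETTL1.3 pair highest, and its mean level was higher by 43.8% with sgMETTL1.3 and by 27.1% with sgMETTL1.6. It rose over both guides (log2 change 0.29 ± 0.086, SE, limma, adjusted p = 0.011) and with sgMETTL1.3 (0.35, adjusted p = 0.0084), and with sgMETTL1.6 the change was 0.23 (95% interval 0.01 to 0.44, adjusted p = 0.074). At this level the log2(TPM + 1) scale compresses differences: the change over both guides was 0.41 with a pseudocount of 0.1 and 0.12 with one of 5, and without sgNS replicate 2 the calls over both guides and with sgMETTL1.3 were lost (adjusted p = 0.088 and 0.055). In GENCODE 29, 42.6% of its 50-base stretches also occur in other genes, nearly all in AC008012.1, a read-through gene that covers TIGAR on the same strand, so its value is uncertain where the counting could split them. Of the PFKFB kinases, which set fructose 2,6-bisphosphate against TIGAR, PFKFB3 fell over both guides, though its sgMETTL1.3 libraries overlapped the controls (-0.15, adjusted p = 0.022; 0.146 without sgNS replicate 2 and 0.052 to 0.064 without sgNS replicate 1, sgMETTL1.3 replicate 2 or sgMETTL1.6 replicate 2), PFKFB2 and PFKFB4 did not pass (-0.09 and -0.12) and PFKFB1 was at most 0.22 TPM.

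AEN (ENSG00000181026.14, chr15:88621296-88632282) encodes a p53-induced nuclease that digests nucleic acids. It stood at 19.35 and 19.2 TPM with sgNS, 23.83 and 24.4 TPM with sgMETTL1.3, and 20.31 and 23.39 TPM with sgMETTL1.6. The controls and the sgMETTL1.3 libraries each lay close together, and the sgMETTL1.6 libraries did not. It rose over both guides (log2 change 0.24 ± 0.056, SE, limma, adjusted p = 0.0026), with sgMETTL1.3 (0.31, adjusted p = 0.0012) and with sgMETTL1.6 (0.17, adjusted p = 0.044). The sgMETTL1.6 call was lost without either sgNS library, either sgMETTL1.3 library or sgMETTL1.6 replicate 2, where the log2 change was 0.07 (adjusted p from 0.054 to 0.414), and with no filter on low genes (adjusted p = 0.130), without the variance trend (0.079) or without ribosomal protein genes (0.063). ISG20L2, a nuclease of the same family that processes ribosomal RNA, rose from 76.43 and 76.71 TPM to 115.32 and 116.77 TPM with sgMETTL1.3 and 104.99 and 102.51 TPM with sgMETTL1.6 (log2 change 0.51, adjusted p = 3.5e-08), and ISG20, at 0.24 to 1.1 TPM, was under the level tested.

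The guides were then compared with each other. MDM2 and RPS27L were higher with sgMETTL1.6 than with sgMETTL1.3, by log2 changes of 0.16 (95% interval 0.05 to 0.28, limma, adjusted p = 0.047) and 0.16 (0.05 to 0.27, adjusted p = 0.042), and the other 7 genes did not pass. Beside these 2 of 9 stand 23.0% of all tested genes, 7.23% higher and 15.8% lower with sgMETTL1.6. The libraries of the guides did not overlap for 7 of the 9, 2 higher and 5 lower with sgMETTL1.6, as for 62.5% of all tested genes (19.5% higher, 43.0% lower). Median-ratio scaling turned the split over all genes from 789 higher and 1721 lower to 1118 higher and 781 lower, and left MDM2 and RPS27L higher. The MDM2 call was lost when any 1 of the 6 libraries was left out (adjusted p from 0.058 to 0.216), and so was that of RPS27L except without sgMETTL1.3 replicate 1. POLH and CDKN1A were lower with sgMETTL1.6 by -0.17 each (adjusted p = 0.069 and 0.075), AEN by -0.14 (adjusted p = 0.135; -0.24 and adjusted p = 0.020 without sgMETTL1.6 replicate 2) and TIGAR by -0.13 (adjusted p = 0.38). For TRIAP1 the difference was -0.06 (95% interval -0.15 to 0.03) and for RRM2B 0.02 (-0.09 to 0.12).

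**Figure D3:**
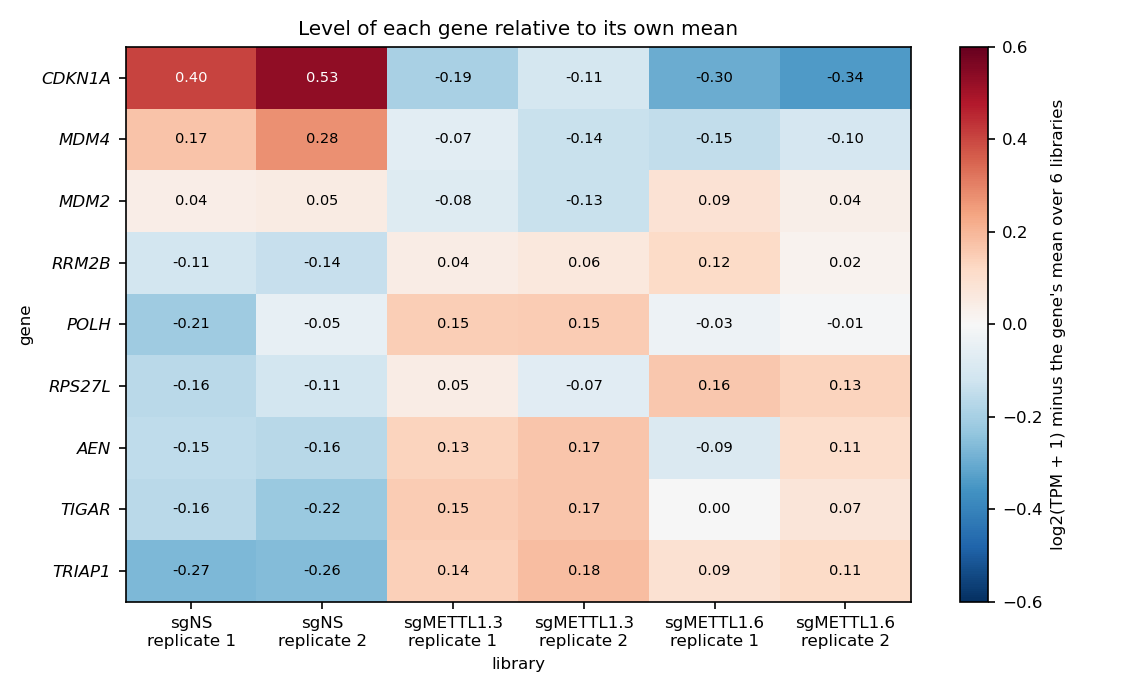
Level of each gene in each of the 6 libraries, as log2(TPM + 1) minus that gene's mean over the libraries; red is above the mean and blue below. CDKN1A reaches 0.53 above its mean in sgNS replicate 2 and 0.34 below it in sgMETTL1.6 replicate 2, and the 6 genes in the lower rows are below their means in both sgNS libraries.

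Among the 9, the profiles of TIGAR and AEN lay closest together, with a root mean square distance of 0.046 between their centred log2(TPM + 1) values over the 6 libraries. TRIAP1 and TIGAR followed at 0.064, AEN and POLH at 0.075 and RPS27L and RRM2B at 0.076, and the farthest pair was CDKN1A and TRIAP1 at 0.52. By the same measure the tested genes nearest to CDKN1A were PPARD, AKNA and PYCR1 (0.041 to 0.045), and 107 tested genes lay within 0.1 of it. For RRM2B, whose nearest were SLAIN2, CLINT1 and GALNT7 (0.0090 to 0.014), 3351 genes did. MNT, NT5E and XYLT1 were nearest to MDM4 (0.017 to 0.026), RNPS1, PLK1 and PSMD11 to TRIAP1 (0.016 to 0.019) and RPS27A, PHF6 and RPL22 to MDM2 (0.018 to 0.021). ZNF276, LANCL2 and ZMYND19 were nearest to TIGAR (0.012 to 0.019), ENGASE, GEMIN7 and NOSIP to AEN (0.023 to 0.026), PLA2G4A, STMN1 and GNE to RPS27L (0.022 to 0.031) and METTL16, CECR5 and CIZ1 to POLH (0.015 to 0.022). The distance is a likeness over 3 groups of 2 libraries and carries no test.

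MDM2, TRIAP1 and TIGAR lie on chromosome 12 with the targeted gene METTL1 (chr12:57768471-57772793). MDM2 and TRIAP1 are on the same side of it, towards the end of the long arm, and TIGAR is on the other side. The 267 tested genes beyond METTL1 on that side had a median log2 change of 0.02 over both guides and the 286 before it -0.06, beside 0.02 over all tested genes. The fall of MDM2 with sgMETTL1.3 (-0.15) and the rise of TRIAP1 (0.43) stood beside a median of 0.05 for the first of these sets with that guide.

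The wider pathway was read from lists with the 9 genes left out. The lists share some genes, PPM1D among them. Beside the list counts stand 59.4% of all tested genes that passed over both guides, 32.6% higher and 26.8% lower. Of 28 tested relatives and regulators of p53, 2 were higher and 6 lower over both guides, with a median log2 change of 0.01. The 4 largest falls were RCHY1 (-0.29), a ligase for p53, PPM1D (-0.27), the phosphatase that switches p53 off and is itself a target, SIRT1 (-0.24), a deacetylase of p53, and RPL5 (-0.16), a ribosomal protein that binds MDM2. The others were CHEK1 (-0.15), a checkpoint kinase, and RPL11 (-0.12), the partner of RPL5 on MDM2, whose log2 change was -0.04 after quantile normalization (adjusted p = 0.051). The risers were ATR (0.17), a DNA damage kinase, whose call was lost without either sgNS library (adjusted p = 0.065 and 0.057), and USP7 (0.15), which removes ubiquitin from p53 and MDM2.

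The list of other direct p53 targets outside apoptosis and the sestrins had 50 tested genes. Of these, 11 rose, 21 fell and 18 did not pass, beside 32.6% of all tested genes higher and 26.8% lower. The median log2 change of the list was -0.05. The 6 with the largest changes all fell. BTG1 and BTG2, which slow proliferation, went from 62.7 ± 1.94 to 31.1 ± 1.58 and 32.05 ± 0.919 TPM (SD, n = 2; log2 change -0.97, limma, adjusted p = 1.3e-09) and from 50.29 and 51.99 TPM to 28.3 ± 0.325 and 39.5 ± 2.25 TPM (-0.60, adjusted p = 1.5e-07). GADD45A, a growth arrest and repair protein, fell from 5.50 ± 0.735 to 2.675 ± 0.191 and 2.165 ± 0.686 TPM (-0.93, adjusted p = 1.6e-05). TRIM22 (-0.68), an antiviral ligase also induced by interferon, ABHD4 (-0.62), a lipase, and DRAM1 (-0.56), a lysosomal autophagy regulator, fell too. With a pseudocount of 5 the change of GADD45A was -0.50, that of ABHD4 -0.40 and that of RB1, described next, -0.17.

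**Figure D4:**
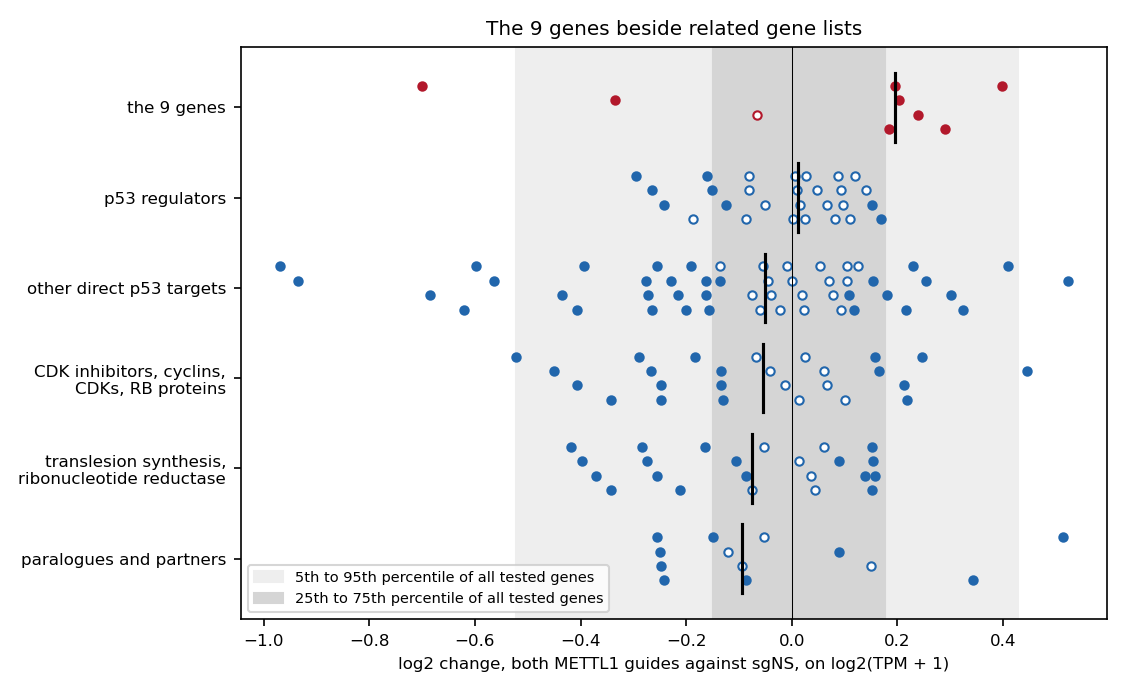
Log2 change over both guides for the 9 genes (red) and for 5 related lists without them (blue), 1 point per tested gene, with vertical offsets only to separate points; filled points passed the test, open points did not, and black bars are medians. Grey bands give the 25th to 75th and 5th to 95th percentiles of all 10911 tested genes, and CDKN1A lies below the 5th percentile of -0.52.

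Around p21, 26 other cyclins, CDKs, CDK inhibitors and RB-family or DREAM complex genes were tested. Of these, 6 rose and 12 fell, beside 32.6% and 26.8% of all tested genes (median log2 change -0.05 for the list). E2F4, the E2F of the DREAM repressor, rose from 68.1 ± 4.07 to 98.5 ± 3.38 and 87.9 ± 0.262 TPM (SD, n = 2; 0.45, adjusted p = 1.0e-06). LIN37 (-0.52) and LIN54 (-0.41), subunits of the same complex, fell. So did E2F2 (-0.45), an activating E2F, RB1 (-0.29), the retinoblastoma protein, and the CDK inhibitor CDKN2D (-0.34). CDKN1B, the p27 relative of p21, stood at 45.13 and 43.63 TPM with sgNS, 33.74 and 33.17 TPM with sgMETTL1.3 and 41.16 and 41.72 TPM with sgMETTL1.6 (-0.25, adjusted p = 0.00016). CDKN1B fell with sgMETTL1.3 (-0.40, limma, adjusted p = 1.0e-05), while with sgMETTL1.6 its log2 change was -0.10 (adjusted p = 0.100), and the guides differed by 0.30 (adjusted p = 0.00090).

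Around POLH and RRM2B, 23 other genes of translesion synthesis and nucleotide supply were tested. Of these, 6 rose and 11 fell, beside 32.6% and 26.8% of all tested genes (median log2 change -0.07 for the list). The largest changes were falls: TK2 (-0.42), the mitochondrial thymidine kinase, UBE2B (-0.40), which with RAD18 marks PCNA for bypass, WDR48 (-0.37), the partner of the deubiquitinase that reverses that mark, PRIMPOL (-0.34), a primase that restarts forks, HLTF (-0.28), which remodels stalled forks, and REV3L (-0.27), the catalytic subunit of polymerase zeta. Of the other polymerases of the family of POLH, POLI fell (-0.26, adjusted p = 0.0034; 0.063 without sgNS replicate 1), REV1, named after its value was seen, fell by less (-0.10, adjusted p = 0.039; 0.072 to 0.152 without either sgNS library, sgMETTL1.3 replicate 2 or sgMETTL1.6 replicate 2), and POLK had a log2 change of -0.05 that did not pass. POLH and RRM2B rose beside lists in which falls outnumbered rises, and the difference between them and those lists was not tested.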

How the data were processed

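Values were the deposited TPM, estimated by the authors with RSEM 1.2.31 on GRCh38 per the submitters' processing notes; which aligner, annotation or strand setting was used is not given in those notes. All 6 columns had a sample's name. With limma 3.58.1 in R 4.3.3, log2(TPM + 1) was fitted (variance trend, all 3 groups in 1 fit, 3 residual and 9.84 prior degrees of freedom). A gene needed a mean TPM of 1 or more, and p-values were Benjamini-Hochberg adjusted over all 10911; an adjusted p under 0.05 passed. Fold changes on this scale understate those of low genes. The fit was run on simulated data with known changes and independent noise at its own variance estimates. That run checks the code and not the assumptions of the fit. The genes and lists were chosen with earlier results of these data known. Named were the 9 genes, METTL1, the 6 largest called changes of each list, paralogues and partners, and the 3 nearest profiles of each gene; overlapping genes, CHEK1, RPL11, REV1, CST3, PECAM1 and HBA1 were added after their values were seen. Positions are from GENCODE 29 on GRCh38 and start windows from RefSeq on GRCh38.p14. Alternatives were other pseudocounts, filters and scalings, no trend, the replicate number as a block and leaving out each library. DAXX, XPC, DCP1B and CDKN1C are not analysed here. A further result is not reported here.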

Additional observations from a re-analysis of the deposited data

Results flagged for a closer look

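The genes MDM2, RPS27L and METTL1 differed between the guides by the test of the difference itself, sgMETTL1.6 minus sgMETTL1.3 (limma, adjusted over all genes tested). For MDM2 the difference in log2 change was 0.16 (adjusted p = 0.047), from -0.15 with sgMETTL1.3 and 0.02 with sgMETTL1.6. For RPS27L it was 0.16 (adjusted p = 0.042), from 0.12 and 0.28. For METTL1, the targeted gene, it was -0.57 (adjusted p = 0.00018), from 0.24 and -0.33. The libraries of the guides did not overlap for any of these genes, as for 62.5% of all tested genes, and 23.0% of all tested genes passed this test. The MDM2 call was lost whichever library was left out. With a library left out, that of RPS27L was kept only without sgMETTL1.3 replicate 1.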

How the results depend on the processing

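Over both guides, 8 of the 9 genes passed, and 7 to 8 when each library was left out in turn; against sgNS the counts were 8 for sgMETTL1.3 (5 to 9, the lowest without sgNS replicate 2) and 6 for sgMETTL1.6 (5 to 6). The count of 2 between the guides was the least stable: it was 0 without a filter on low genes and without a variance trend (limma; 4 and 5 genes at an unadjusted p under 0.05), 0 to 1 when each library was left out (0 to 4 genes at an unadjusted p under 0.05), and 4 with the replicate block. Over all genes that comparison called 2510, 1023 with no filter, 1409 with no trend and 1215 to 2476 with a library left out, and calls higher with sgMETTL1.6 made up 31.4%, 58.9% after median-ratio scaling, 54.8% after quantile normalization and 49.3% without ribosomal protein genes. Beside the member counts, 59.4% of all tested genes passed over both guides, 58.5% with sgMETTL1.3, 51.0% with sgMETTL1.6 and 23.0% between the guides. In each comparison the number called over all genes also moved with the library left out. Each comparison had 134 member values under alternatives. Of these, 132 kept their side of the threshold over both guides, 123 with sgMETTL1.3, 121 with sgMETTL1.6 and 116 between the guides. The sign changed for 6 values between the guides and 1 with sgMETTL1.6, and none of these was called. TIGAR gives no value at a mean TPM of at least 5. The cause of each change was not tested. Replicates share only a number: their deviations correlated across genes at -0.01, 0.21 and 0.15, and the replicate block added RPS27L with sgMETTL1.3 (adjusted p = 0.032) and CDKN1A and POLH between the guides. TPM keep no depth, which limits what can be said of low genes such as TIGAR.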
